A study of Mus musculus with 17 samples.

Results

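The IL-10 family cluster of mouse chromosome 1 holds the cytokine genes Il10, Il19, Il20 and Il24, and the accessible elements around them were followed by ATAC-seq, a method that marks open DNA by where the Tn5 transposase cuts it. An element was a stretch of overlapping peaks of all 17 deposited peak lists, and it belonged to the cluster when a peak summit lay within 20 kb of the body of 1 of the 4 genes. This gave 18 elements of 99504 in the genome, of which 14 lay at Il10, 2 within 20 kb of Il24, 1 of Il20 and 2 of Il19, with an element between neighbouring genes counted for each gene it lay near. The cells were bone marrow-derived macrophages (BMDMs) from male C57Bl6/J mice aged 6 to 12 weeks, differentiated for 7 days in L929-conditioned medium. They came from wild-type (WT) mice (8 lists) or from whole-body Nur77-KO littermates (KO, 9 lists), which lack the nuclear receptor encoded by Nr4a1. In the KO line a loxP-flanked Nr4a1 was deleted by Cre under the CMV promoter, and Cre was then bred out. The labels give the KO genotype only as cre, and the deletion is in every cell of the mouse, so macrophages developed without the receptor. Lipopolysaccharide (LPS) was given at 100 ng/ml for 1 or 18 h, with untreated cells at 0 h. Each group held 3 lists, apart from WT at 1 h, which held 2 lists, 1 of them named replicate 1-2. Nothing in the labels ties a replicate to a separate mouse or culture, so p-values measure the spread between these lists, which may be technical.

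IL-10 is the cytokine by which macrophages restrain their own inflammatory response. It binds a receptor of Il10ra and Il10rb chains and signals through Jak1, Tyk2 and Stat3. In macrophages its gene is switched on by LPS after the first wave of inflammatory cytokines, under factors that bind AP-1, NF-kB, CRE and C/EBP motifs. IL-19, IL-20 and IL-24 are related cytokines that act mostly on epithelial cells, through receptors built from Il20ra, Il20rb and Il22ra1.

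Peaks were ranked inside each list by p-value, with rank 1 the strongest peak and tied peaks sharing their mean rank. The shortest list held 24389 peaks, so the score of an element was the log2 ratio of this number, plus 1, to its rank, set to 0 for a weaker or missing peak. A score difference of 1 is thus a halving of the rank. The lists differed in depth, an index recovered from the fold and p-value columns, from 0.382 to 9.75 background reads per kb. The 0 h lists had 0.720 to 9.75, the 1 h lists 0.382 to 4.14 and the 18 h lists 1.10 to 8.38, with WT at 18 h (4.62 to 8.38) deeper than KO at 18 h (1.10 to 1.76). KO 18 h replicate 1 stood apart by its narrow peaks, the shortest of 66 bp against 152 to 219 bp in the other lists. Of 10 macrophage marker genes, 8 carried a promoter peak among the best 24389 peaks of all 17 lists and each of the 10 did so in at least 15. Of 23 markers of other cell types, 18 did so in 0 lists. The other 5 were Col1a1 (14 lists), Zbtb46 (13), Ms4a1 (10), Camp (10) and Pdgfra (1), and their part in the results was not tested.

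Elements are named by the distance of their main summit from the Il10 start, or, near Il20, from the Il20 start. Coordinates are those of GRCm38 (mm10). Il10 (ENSMUSG00000016529.5) runs from chr1:131019845-131024974 on the + strand. On the − strand lie Il19 (ENSMUSG00000016524.12, chr1:130932656-130940115), Il20 (ENSMUSG00000026416.12, chr1:130906985-130911451) and Il24 (ENSMUSG00000026420.16, chr1:130882074-130887454). Of the 18 elements, 15 had an intergenic summit, 2 a summit in an intron of Il10 and 1 a summit in an intron of Fcmr, with 0 in an exon or UTR. The elements were 228 to 2809 bp wide, with a median of 634 bp.

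The sequences within 100 bp of the summit are shown for the 3 elements that changed after LPS (Il20 −7.4 kb, Il10 +6.2 kb and +23.0 kb), for the +18.4 kb element that was open at every time, and for 2 upstream elements that were seen only after LPS (−4.3 kb and −2.6 kb). Capitals mark AP-1, NF-kB and C/EBP motifs.
Il20 −7.4 kb (chr1:130918706-130918906, + strand): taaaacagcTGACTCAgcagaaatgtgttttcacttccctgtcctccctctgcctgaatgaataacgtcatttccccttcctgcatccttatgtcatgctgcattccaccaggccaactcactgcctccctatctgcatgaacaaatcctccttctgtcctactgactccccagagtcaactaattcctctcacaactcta
Il10 −4.3 kb (chr1:131015435-131015635, + strand): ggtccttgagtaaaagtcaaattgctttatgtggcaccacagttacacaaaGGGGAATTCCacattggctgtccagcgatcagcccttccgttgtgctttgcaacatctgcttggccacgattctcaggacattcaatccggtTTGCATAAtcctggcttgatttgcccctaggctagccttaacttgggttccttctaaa
Il10 −2.6 kb (chr1:131017143-131017343, + strand): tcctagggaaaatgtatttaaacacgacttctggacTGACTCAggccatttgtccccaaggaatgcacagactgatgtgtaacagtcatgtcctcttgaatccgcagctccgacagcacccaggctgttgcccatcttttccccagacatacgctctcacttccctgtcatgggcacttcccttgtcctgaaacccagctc
Il10 +6.2 kb (chr1:131025988-131026188, + strand): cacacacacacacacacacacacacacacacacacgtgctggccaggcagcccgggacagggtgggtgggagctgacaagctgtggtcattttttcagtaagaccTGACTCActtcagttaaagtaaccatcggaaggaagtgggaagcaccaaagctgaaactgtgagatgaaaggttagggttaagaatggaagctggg
Il10 +18.4 kb (chr1:131038129-131038329, + strand): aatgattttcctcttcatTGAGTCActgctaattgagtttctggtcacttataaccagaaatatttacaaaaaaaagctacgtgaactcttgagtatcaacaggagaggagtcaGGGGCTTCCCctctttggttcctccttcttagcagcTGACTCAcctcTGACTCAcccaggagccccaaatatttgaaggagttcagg
Il10 +23.0 kb (chr1:131042794-131042994, + strand): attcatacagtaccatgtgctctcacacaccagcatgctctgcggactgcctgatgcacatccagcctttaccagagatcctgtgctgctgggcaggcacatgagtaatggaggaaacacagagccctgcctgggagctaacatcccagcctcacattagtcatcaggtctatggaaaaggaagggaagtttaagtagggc

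The motifs searched on both strands were AP-1 (TGACTCA), CRE (TGACGTCA), C/EBP (TTGCNNAA), STAT (TTCNNNGAA), ISRE (by its name), PU.1 (GAGGAAGT), the Nur77 monomer motif NBRE (AAAGGTCA), the Maf site (TGCTGAC, whose last letters can be the first of AP-1) and NF-kB, given here by its name. AP-1 motifs lay within 100 bp of the summit in 6 of the 18 elements, namely Il20 −7.4 kb and Il10 −2.6, +1.8, +6.2, +14.1 and +18.4 kb, against 13.8% of all elements of the genome with a window of the same length. The AP-1 motif of the +6.2 kb element lay 8 bp from the summit, the closest of them. The +18.4 kb element held 3 AP-1 motifs and 1 NF-kB motif. NF-kB motifs were in 3 of 18 elements (−144.6, −4.3 and +18.4 kb, 4.09% of all elements) and C/EBP motifs in 3 of 18 (−67.1 and −4.3 kb and the Il10 promoter, 10.7% of all). CRE (0.626% of all), STAT (5.80%), ISRE (3.63%), PU.1 (6.86%), NBRE (1.05%) and Maf sites (5.57%) were each in 0 of 18. A match says only that the letters are there. Within 50 bp of the summit AP-1 remained in 1 of 18 elements, the +6.2 kb element, against 9.07% of all.

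The cluster was open mainly on the Il10 side. Of the 18 elements, 14 were seen in at least 2 lists, 4 in 1 list and 1, at +6.2 kb, in all 17. Of all elements seen in at least 2 lists 16.5% were in all lists, against 1 of 14 here. In the WT lists 9, 7 and 8 elements were present at 0 h, 7 and 12 at 1 h, and 9, 9 and 7 at 18 h. In the KO lists the numbers were 8, 6 and 1 at 0 h, 15, 12 and 11 at 1 h, and 4, 3 and 4 at 18 h. Each KO list held more elements of the cluster at 1 h than any KO list at 0 or 18 h, while the WT lists overlapped between times. The KO lists held 70397, 37514 and 27429 peaks in the whole genome at 0 h, 70843, 36351 and 44443 at 1 h, and 36136, 29568 and 32187 at 18 h, so each 18 h list was shorter than any list at 1 h. The KO 0 h list with 1 element, replicate 3, had a depth of 0.720, and the KO 1 h list with 15 elements had 4.14 against 0.593 and 1.22 in the others. The part of depth and list length in these numbers was not tested.

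**Figure D1:**
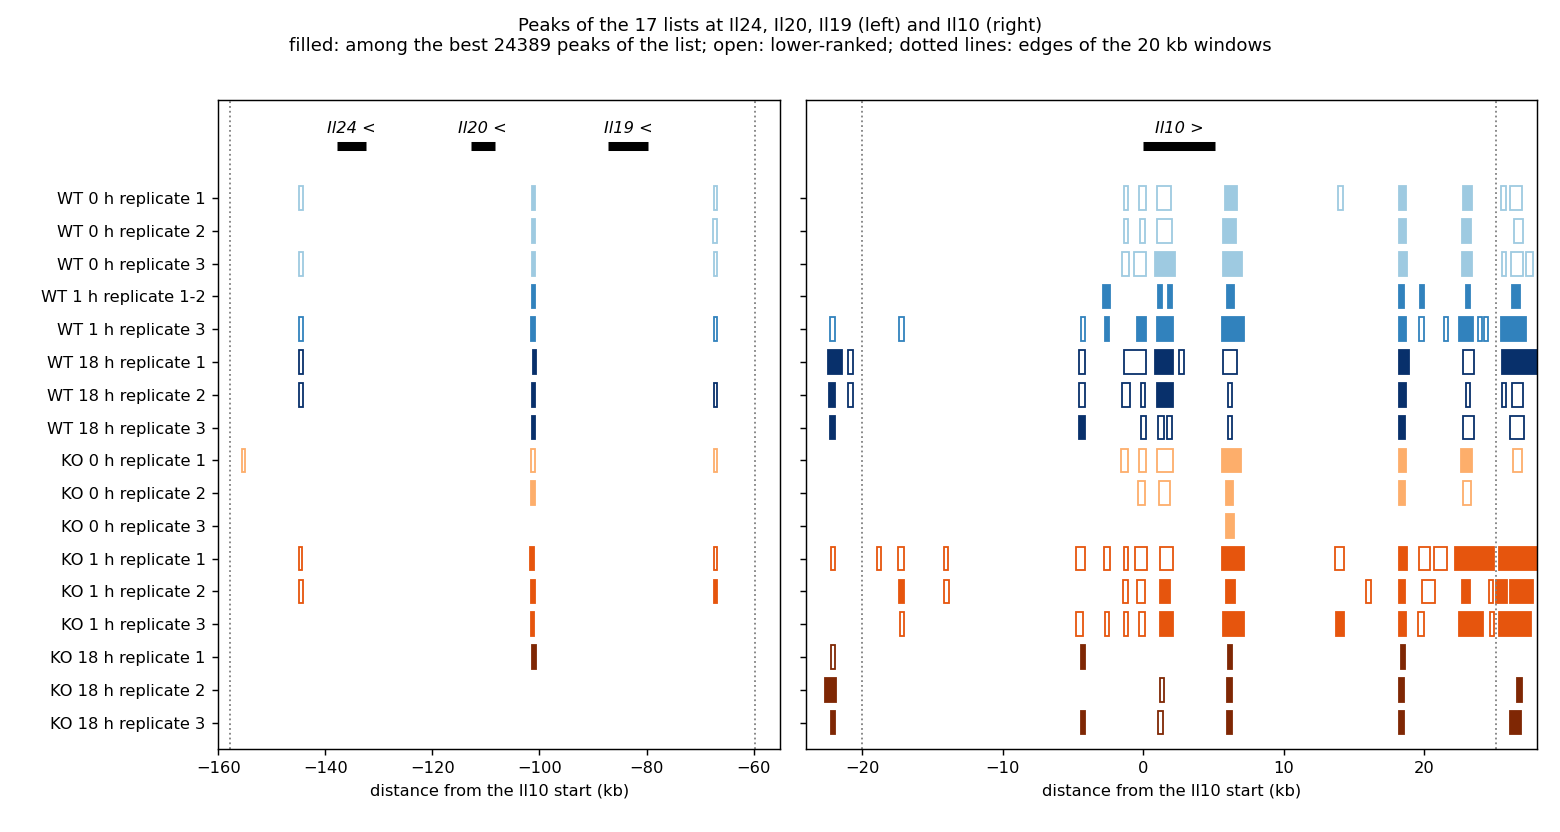
Peaks of the 17 lists (rows, by genotype and LPS time) at Il24, Il20 and Il19 (left) and at Il10 (right), by distance from the Il10 start in kb. Filled bars are among the best 24389 peaks of a list and open bars are weaker, dotted lines mark the windows of 20 kb, and the +6.2 kb peak is the only one of the 18 elements present in all 17 rows.

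The Il10 promoter was weakly accessible, and the promoters of its 3 relatives carried no peak. A summit within 1 kb of the Il10 start was present in 12 of 17 lists, at ranks from 23650 to 46172, and in 1 list among the best 24389 peaks. By group, the promoter peak was in 3 of 3 WT lists at 0 h, 1 of 2 at 1 h and 3 of 3 at 18 h. In KO it was in 2 of 3 lists at 0 h, 3 of 3 at 1 h and 0 of 3 at 18 h. The WT 18 h promoter peaks rested on 28, 18 and 16 reads at 4.62 to 8.38 background reads per kb, and the KO 18 h lists without the peak had 1.10 to 1.76. KO lists of 0.593 and 1.22 at 1 h and of 1.53 at 0 h held the peak. KO and WT depths did not overlap at 18 h, so depth and genotype cannot be told apart there. A summit within 1 kb of the Il19, Il20 or Il24 start was found in 0 of 17 lists.

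Of the 18 elements, 7 had a peak among the best 24389 in at least 2 lists and were tested with the other elements of the genome that did (38.9%, against 34.3% of all elements). They were Il20 −7.4 kb and Il10 −4.3, −2.6, +1.8, +6.2, +18.4 and +23.0 kb. The −2.6 kb element entered only through the WT lists at 1 h and the −4.3 kb element only through lists at 18 h, so their differences at those times had to go that way and are given no test. The 3 with the best median rank over the lists were +6.2 kb (14502), +18.4 kb (16726.5) and Il20 −7.4 kb (21200). Tests were two-sided exact permutation tests over the lists within genotype, with Benjamini-Hochberg adjustment over 34139 elements.

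After 1 h of LPS, 3 of the 7 tested elements were higher and 0 lower, against 10.2% of all tested elements called higher and 12.4% called lower. The same 3, at Il10 +6.2 kb, Il20 −7.4 kb and Il10 +23.0 kb, also had scores that did not overlap between 0 and 1 h in either genotype (9.41% of all elements did so in that direction). By ranks without the ceiling at 24389, a setting chosen after the values were seen, this also held at +1.8 kb, which made 4 of 7 (11.3% of all). With ranks as a share of the list the difference at +1.8 kb was 0.03 (exact permutation p = 0.905), and the times overlapped in both genotypes. Over the 5 of the 7 that entered the test through lists of more than 1 LPS time, which leaves out −4.3 and −2.6 kb, the median difference was 0.88 on the log2 rank scale, against −0.07 over all 29095 such elements.

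An element 6.2 kb downstream of the Il10 start, 1114 bp past the end of the gene (chr1:131025417-131027043), rose at 1 h and fell from 1 to 18 h. Its ranks in WT were 11087, 16909 and 14502 at 0 h, 1894.5 and 5956 at 1 h, and 30565.5, 31105.5 and 27822.5 at 18 h. In KO they were 19507.5, 11810 and 12738 at 0 h, 6270, 5022 and 3527 at 1 h, and 23854.5, 17941.5 and 20003.5 at 18 h. All 5 lists at 1 h ranked it above all 6 lists at 0 h, and in WT all 18 h lists ranked it below those at 0 h. The rise at 1 h was 2.05 in WT and 1.57 in KO, 1.81 on average (exact permutation p = 0.005, the smallest possible here, adjusted p = 0.0272), and 1.51% of all tested elements rose more. It did not pass where a peak had to cover 50% of the element (1.03, exact permutation, adjusted p = 0.325) or with ranks as a share of the list (1.39, exact permutation, adjusted p = 0.186), settings in which 0 elements of the genome were called, nor with the replicate block (exact permutation, adjusted p = 0.368). Leaving out any WT list of 0 or 1 h, KO 0 h replicate 1 or KO 1 h replicate 1, which makes 7 of 11 lists, ended the call as well (exact permutation, adjusted p up to 0.0798). In these 7 settings and with the replicate block 0 elements of the genome were called. From 1 to 18 h it fell by 2.47 (exact permutation p = 0.005, adjusted p = 0.0372), with −2.86 in WT and −2.09 in KO, and 0.574% of all tested elements had a lower value. Without the narrow-peak list, KO 18 h replicate 1, that difference was −2.42 (exact permutation, adjusted p = 0.0519), which no longer passed. Leaving out any 1 of the 11 lists of 1 and 18 h ended this call (exact permutation, adjusted p from 0.0519 to 0.108). The call also ended with ranks as a share of the list (−2.54, exact permutation, adjusted p = 0.17). It ended where a peak had to cover 50% of the element (−1.30, exact permutation, adjusted p = 0.489) and with the replicate block (−2.06, exact permutation, adjusted p = 0.496). In all of these settings 0 elements of the genome were called from 1 to 18 h. Against 0 h the difference at 18 h was −0.66 (exact permutation p = 0.01, adjusted p = 0.0556), which did not pass. It did pass with a peak required in 4 lists (adjusted p = 0.0477), after adjustment for depth (−0.74, adjusted p = 0.0315) and without KO 0 h replicate 1 (−0.77, adjusted p = 0.0491), all by exact permutation. Its summit rested on 12 to 130 reads at 0 h, 18 to 104 at 1 h and 7 to 31 at 18 h.

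The element 7.4 kb upstream of the Il20 start (chr1:130918102-130919149) is the one drawn at −101.0 kb from the Il10 start, between Il20 and Il19. Its ranks in WT were 15763, 19510.5 and 21324.5 at 0 h, 5848.5 and 4762.5 at 1 h, and 21200, 22786.5 and 23241 at 18 h. In KO they were 24899.5 and 22197 at 0 h with no peak in replicate 3, then 13649.5, 8383.5 and 9266 at 1 h, and 3640 in replicate 1 at 18 h with no peak in the others. All 1 h lists stood above all 0 h lists, and at 18 h the WT lists were back among or below the 0 h ranks. The rise at 1 h was 1.83 in WT and 1.21 in KO, 1.52 on average (exact permutation p = 0.005, adjusted p = 0.0272), and 2.44% of all tested elements rose more. It did not pass with the best 10000 peaks of every list (0.52, exact permutation, adjusted p = 0.0737), nor where a peak had to cover 50% of the element (0.18, exact permutation, adjusted p = 0.692), with ranks as a share of the list (1.13, exact permutation, adjusted p = 0.186), with the replicate block (exact permutation, adjusted p = 0.368) or without any 1 of the same 7 lists as at +6.2 kb (exact permutation, adjusted p from 0.0502 to 0.0798). From 1 to 18 h the difference was −1.21 (exact permutation p = 0.085, adjusted p = 0.227, and adjusted p = 0.0261 by limma), with −2.09 in WT and −0.34 in KO, where the narrow-peak list, replicate 1, gave the strongest rank of all 17. Without that list, a setting chosen after the values were seen, the difference from 1 to 18 h was −1.67 (exact permutation p = 0.01, unadjusted and the smallest possible), and that from 0 to 18 h was −0.15 in place of 0.31 (exact permutation p = 0.1 and 0.97). It was the only tested element near Il19, Il20 or Il24.

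The +23.0 kb element (chr1:131042034-131044842), 17920 bp past the end of Il10 on the side of Mapkapk2, moved less. Its ranks in WT were 19028.5, 18240.5 and 22424.5 at 0 h, 17413.5 and 17650 at 1 h, and 46594.5, 38492 and 27822.5 at 18 h. In KO they were 21732 and 28764 at 0 h with no peak in replicate 3, then 12902.5, 17010.5 and 18910.5 at 1 h, and no peak in any of the 3 lists at 18 h. The 1 h lists were above the 0 h lists by a small margin in WT, and no 18 h list reached the best 24389 peaks. As a percentage of the list the WT order was the reverse, with 29.9, 28.9 and 31.4 at 0 h and 71.4 and 43.1 at 1 h. The rise at 1 h was 0.36 (exact permutation p = 0.01, adjusted p = 0.0442) and the difference from 1 to 18 h was −0.54 (exact permutation p = 0.005, adjusted p = 0.0372). With ranks taken as a share of each whole list the 1 h difference was 0.01 (exact permutation, adjusted p = 1) and that from 1 to 18 h −0.96 (exact permutation, adjusted p = 0.288). In that setting 0 of 77900 elements were called. Where a peak had to cover 50% of the element the values were 0.21 and −0.21 (exact permutation, adjusted p = 0.581 and 0.754). The 1 h call remained in 2 of the 11 settings that left out 1 list, those without KO 1 h replicate 2 or 3 (exact permutation, adjusted p up to 0.105 in the others), and was lost with elements built from summits (0.34, exact permutation, adjusted p = 0.0512). Leaving out any 1 list of 1 or 18 h ended the call from 1 to 18 h (exact permutation, adjusted p from 0.0519 to 0.108), with 0 elements of the genome called.

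**Figure D2:**
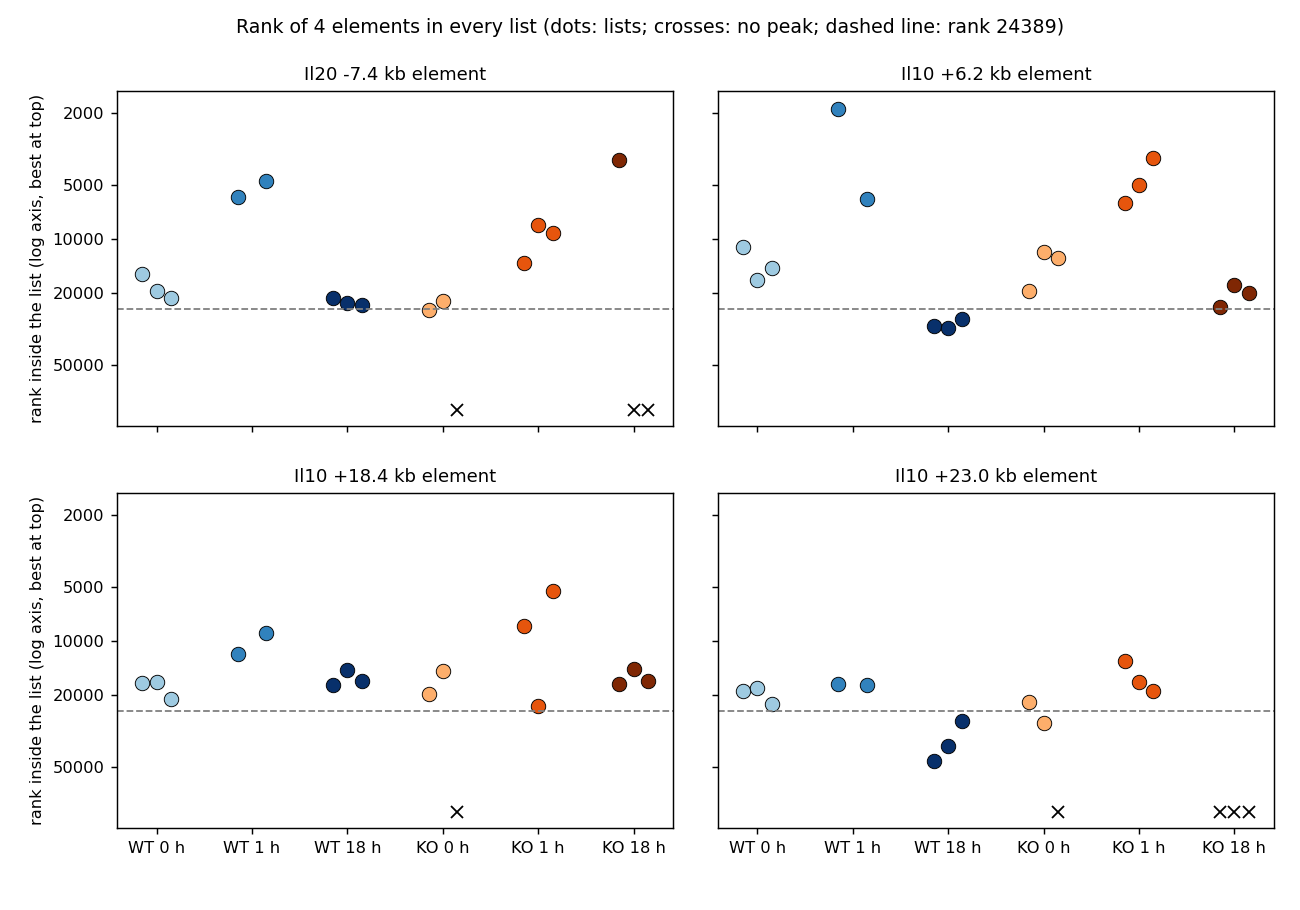
Rank inside the list (log axis, strongest at the top) of 4 elements in each of the 6 groups. Dots are lists, crosses are lists without the peak and the dashed line is rank 24389. The 1 h lists of both genotypes lie above the 0 h lists at +6.2 kb and Il20 −7.4 kb, whereas at +18.4 kb 1 KO list at 1 h, at rank 22863, is the weakest of those with a peak.

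The +18.4 kb element (chr1:131038028-131038793) was open at all 3 times. It was among the best 24389 peaks of 16 lists and had no peak in KO 0 h replicate 3. In WT its ranks were 17159.5, 16909 and 21124 at 0 h, 11828 and 9051.5 at 1 h, and 17626.5, 14418 and 16593.5 at 18 h. In KO they were 19732 and 14643 at 0 h, 8290.5, 22863 and 5250 at 1 h, and 17260, 14306 and 16726.5 at 18 h. In WT the 1 h ranks were above those of the other times, whereas in KO replicate 2 at 1 h, a list of depth 0.593, fell below the lists at 0 and 18 h that held the peak. As a percentage of the list, WT replicate 1-2 at 1 h was the weakest WT list, at 48.5. WT replicate 3 at 1 h was at 22.1, and the WT lists of 0 and 18 h at 26.8 to 35.8. The 1 h difference was 0.88 (exact permutation p = 0.025, adjusted p = 0.0789), which did not pass. It did pass by limma (adjusted p = 0.0313), and by exact permutation after adjustment for depth (1.16, adjusted p = 0.0346) and without KO 1 h replicate 2 (1.18, adjusted p = 0.0479). With ranks as a share of the list the value was 0.49 (exact permutation p = 0.39, adjusted p = 0.595). The difference at 18 h against 0 h was 0.22 (exact permutation p = 0.12, adjusted p = 0.281).

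Inside Il10, the +1.8 kb intron element (chr1:131020651-131022136) was seen in 15 lists. Its ranks in WT were 36283.5, 30528 and 24197.5 at 0 h, 17413.5 and 22196.5 at 1 h, and 20839, 23496 and 32437.5 at 18 h. In KO they were 28106 and 33115.5 at 0 h, 25716.5, 22863 and 23448.5 at 1 h, and 26000 and 29265 at 18 h, with no peak in replicate 3 at 0 h and replicate 1 at 18 h. The 1 h ranks lay above the 0 h ranks in each genotype, mostly near or beyond rank 24389, where the score is 0. As a percentage of the list the 2 times overlapped. In WT the values were 57.0, 48.4 and 33.9 at 0 h and 71.4 and 54.1 at 1 h. In KO they were 39.9 and 88.3 at 0 h and 36.3, 62.9 and 52.8 at 1 h. With ranks as a share of the list the 1 h difference was 0.03 (exact permutation p = 0.905). The 1 h difference was 0.18 (exact permutation p = 0.02, adjusted p = 0.0664), which did not pass, though it did by limma (adjusted p = 0.0267).

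On both sides of Il10 several elements were seen only after LPS. The −2.6 kb element (chr1:131016976-131017444) was present at 1 h only, at ranks 20457 and 22196.5 in WT and 25716.5 and 30493 in KO replicates 1 and 3, on 4 to 31 reads. The −17.1 kb element (chr1:131002385-131002847) was likewise in 4 of 5 lists at 1 h and in none of the other lists, at ranks 27027.5 in WT replicate 3 and 28881, 17010.5 and 25453 in KO. Downstream, the element named +21.3 kb (chr1:131039402-131041566) was in all 5 lists at 1 h (ranks 20457 and 36035.5 in WT and 51960.5, 26728.5 and 33713.5 in KO) and in none of the other lists. Its peaks rested on 4 to 12 reads. Its summits were spread, with 4 of the 5 lists having one 19.78 to 19.85 kb from the Il10 start. These 3 of the 14 elements seen in at least 2 lists were present in at least 4 of 5 lists at 1 h and in no other list, against 0.517% of all 77900 elements seen in at least 2 lists. The −14.0 kb element was seen in 2 KO lists at 1 h and in no other, which makes 4 of 14 seen in 2 or more lists at 1 h alone (2.88% of all). The 1 h lists had 0.382 to 4.14 background reads per kb. Their weakest peaks in the whole genome rested on 3 to 6 reads, against 4 to 10 in the other lists. The part of depth in these counts was not tested. These rules of presence were chosen after the lists were seen. Elements seen at 1 h alone can enter a test only through the group in which they are high, so their 1 h difference is given no test.

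The −4.3 kb element (chr1:131015022-131015727), with an NF-kB and a C/EBP motif, was absent from all 6 lists at 0 h and present later. At 1 h it was present in 1 of 2 lists of WT cells (rank 28939.5) and in 2 of 3 of KO cells (35267.5 and 37186). At 18 h it was in 3 of 3 WT lists (34009, 25076.5 and 24298) and 2 of 3 KO lists (17260 and 22024.5). It was thus in 5 of 6 lists at 18 h, and it was the only one of 14 elements in at least 4 of 6 lists at 18 h and none at 0 h (1.16% of all). In all, 5 of the 14 elements were seen in no list at 0 h (8.81% of all) and 5 of 14 in no list at 18 h (22.3%).

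**Figure D3:**
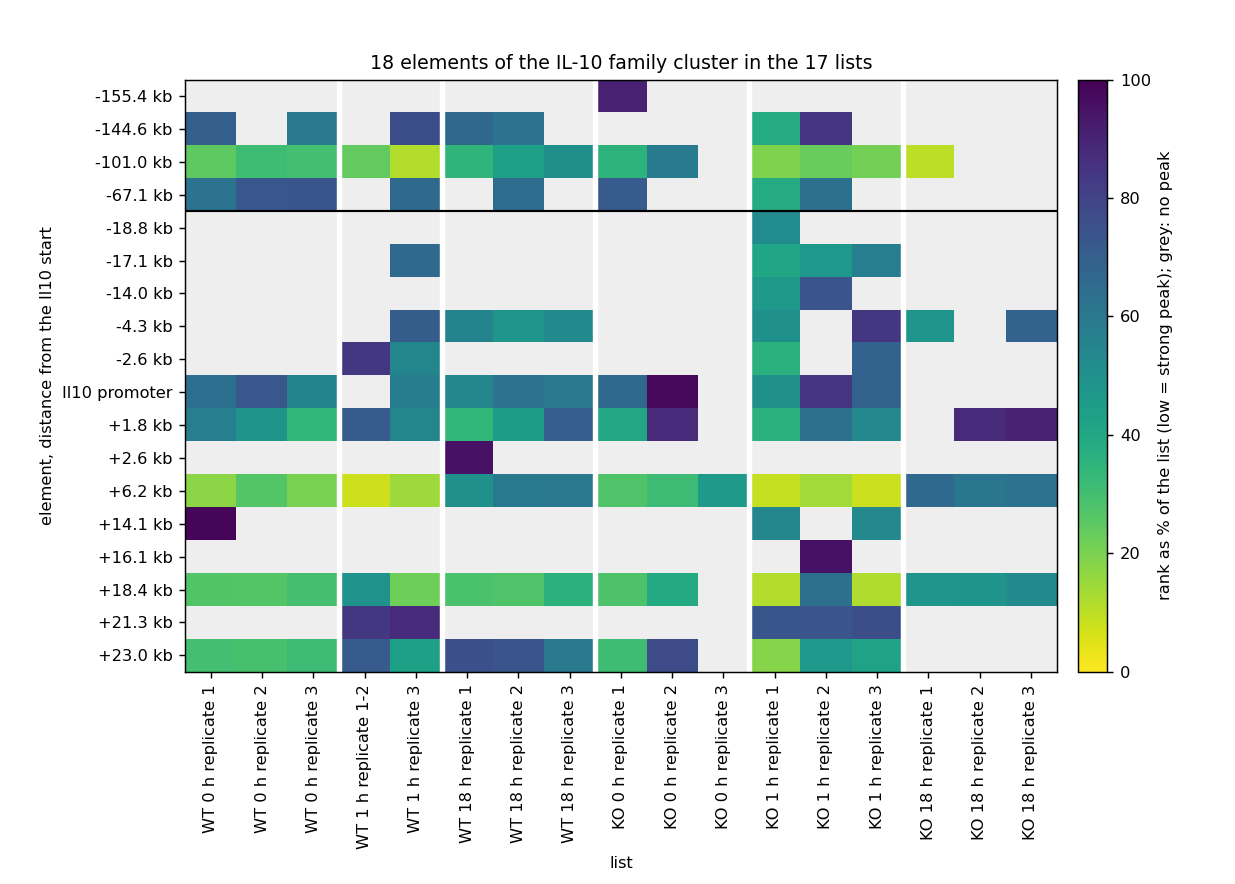
Rank as a percentage of the list (colour, yellow strongest, grey no peak) for the 18 elements (rows, by distance from the Il10 start) in the 17 lists (columns, by genotype and LPS time). The row at −101.0 kb is the Il20 −7.4 kb element, the +21.3 kb row is filled in the 5 lists at 1 h alone, and the row at −4.3 kb is empty in the 6 lists at 0 h.

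At 18 h against 0 h, 0 of the 7 tested elements passed, against 6.28% of all tested elements called higher and 8.64% lower. An unadjusted p under 0.05 was reached by 1 of the 7, the +6.2 kb element, and limma called 0 of 7. From 1 to 18 h, 2 of 7 fell, at +6.2 and +23.0 kb, against 8.25% of all called lower, and 0 rose (5.2% called higher). The same 2 had scores that did not overlap in either genotype (8.64% of all in that direction, 6.34% in the other), and the same 2 by ranks without the ceiling (10.7% of all). The median difference of the 5 that entered through lists of more than 1 time was −0.66, against 0.03 over all such elements.

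**Figure D4:**
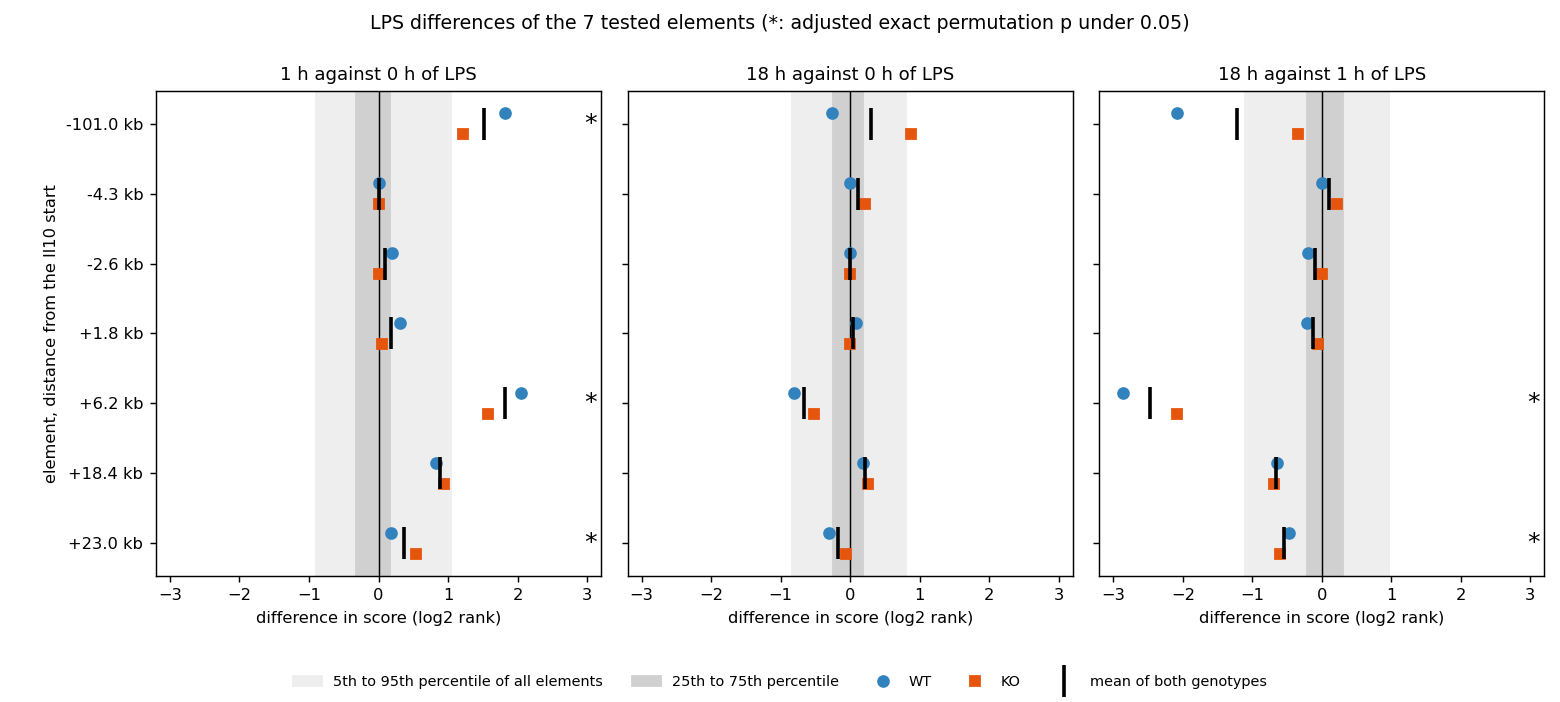
Difference in score (log2 rank, horizontal axis) of the 7 tested elements (rows, by distance from the Il10 start) for 3 LPS comparisons, in WT (circles), KO (squares) and on average (bars). Shaded bands are percentile ranges of all tested elements, given in the key, and stars mark an adjusted exact permutation p under 0.05. At +6.2 kb the average was 1.81 at 1 h against 0 h and −2.47 at 18 h against 1 h.

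In the test of KO against WT over the 3 LPS times 0 of the 7 elements of the cluster passed, and 0 of 34139 elements of the genome did so in either direction (0% called), with the smallest adjusted p at 0.115. Groups that did not overlap at any time in the same direction were found for 0 of 7 (0.111% of all higher in KO and 0.161% lower). The lowest p of the 7 was at +1.8 kb, where the KO difference was −0.12 (exact permutation p = 0.01, adjusted p = 0.434), and it was the 1 of 7 with an unadjusted p under 0.05. By limma 0 of 7 were called, with 184 of the 34139 elements of the genome. The LPS response of KO differed from that of WT in 0 of 7 elements at 1 h and 0 of 7 at 18 h, with 0 of 7 under an unadjusted p of 0.05 at either time (0% of all elements called). At +6.2 kb the response at 1 h differed by −0.48 (exact permutation p = 0.585), and at Il20 −7.4 kb by −0.61 (exact permutation p = 0.325). With ranks as a share of each whole list both had the opposite sign, 0.80 at +6.2 kb (exact permutation p = 0.16) and 0.73 at Il20 −7.4 kb (exact permutation p = 0.32). A p that misses the threshold does not show that the genotypes are alike.

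At single times some elements had ranks, taken without the ceiling, that did not overlap between the genotypes, in groups too small for a p below 0.1. At 0 h this held for 1 of 7, Il20 −7.4 kb, which was lower in KO (score difference −0.34, 9.77% of all elements lower without overlap and 4.79% higher). At 1 h it held for 3 of 7, Il20 −7.4 kb (−0.95), −2.6 kb (−0.19) and +1.8 kb (−0.26), all lower in KO (7.67% of all, with 12.7% higher), of which −2.6 kb had to be lower by the way it entered the test. As a percentage of the list these 3 overlapped between the genotypes at 1 h. The Il20 −7.4 kb element was at 11.6 in WT replicate 3 and at 19.3, 23.1 and 20.8 in KO, all 3 of them ahead of WT replicate 1-2. The +1.8 kb element was at 71.4 and 54.1 in WT and 36.3, 62.9 and 52.8 in KO. The −2.6 kb element was at 83.9 and 54.1 in WT and 36.3 and 68.6 in KO, with no peak in KO replicate 2. At 18 h it held for the +6.2 kb element, which was higher in KO by a score of 0.25 (3.51% of all), and for the +23.0 kb element, which had no peak in KO and only ranks beyond 24389 in WT, where all scores are 0 (14.4% of all lower). At +6.2 kb the order at 18 h depends on the measure, since as a percentage of the list its rank was 49.7, 59.6 and 60.0 in WT and 66.0, 60.7 and 62.1 in KO, which puts KO lower. Depths did not overlap between the genotypes at that time, so depth and genotype cannot be told apart.

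The edges of the windows cut through open chromatin. Just inside lay −18.8 kb, seen in 1 list, and +23.0 kb. Just outside lay −20.9 kb, seen in 2 lists, −22.1 kb (chr1:130997185-130998417) and +26.6 kb. The −22.1 kb element was in 0 of 6 lists at 0 h, 2 of 5 at 1 h and 6 of 6 at 18 h, at ranks 18133.5, 17007 and 19844.5 in WT and 31974, 15965 and 10507.5 in KO at 18 h. It was absent from the same lists at 0 h as −4.3 kb, which was in 5 of 6 at 18 h. The +26.6 kb element was in 4 of 6 lists at 0 h, at ranks of 49651.5 or weaker, and in all 5 at 1 h, at ranks from 9849.5 to 20157.

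Other genes of the pathway were described by the same window of 20 kb. By the same exact tests and adjustment, and over elements that entered through lists of more than 1 LPS time (a limit set after the values were seen), receptor genes had 18, of which 6 were higher at 1 h and 0 lower, against 10.6% of all such elements called higher and 14.1% called lower. These lay at Il10ra (0.91), the ligand-binding chain for IL-10, at Il10rb (1.25, 1.90 and 1.44), its shared partner chain, and at Il20rb (0.88 and 0.85), a chain of the IL-20 receptors. Genes of signalling downstream of the receptor had 34, of which 9 were higher and 2 lower, and 5 of the 9 lay at Socs3 (0.81 to 3.54), the feedback inhibitor of cytokine receptors. Factors that act on Il10 or serve its response had 67, with 8 higher and 4 lower. Among them were 4 higher elements at Nfkb1 (0.38 to 1.95), a subunit of NF-kB, and a lower one at Maf (−1.37), an activator of Il10. Others were higher elements at Creb1 (1.66), Bcl3 (1.24) and Etv3 (1.02) and a lower one at Crem (−0.78). Neighbouring genes had 36, with 6 higher and 3 lower, and 4 of the 6 lay by Mapkapk2 (0.36 to 1.12, the lowest of them being the +23.0 kb element), which encodes a kinase that acts in the LPS response. The other ligands Il22, Iltifb, Ifnl2 and Ifnl3 had no such element. At 18 h against 0 h the elements called higher and lower were 2 and 2 for receptors, 6 and 3 for signalling, 9 and 5 for factors and 1 and 1 for neighbours, against 6.61% of all such elements called higher and 9.66% lower, and for KO against WT 0 of each list were called. The medians at 1 h were 0.03 for receptors, −0.0043 for signalling, 0.02 for factors and 0.07 for neighbours, beside −0.07 over all such elements.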

How the data were processed

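ATAC-seq of BMDMs was analysed from 17 deposited peak lists. The authors trimmed reads with cutadapt (version 2.6), mapped them to mm10 with the snakeATAC pipeline, called peaks per sample and tested sites with DiffBind (version 3.0.15), a test of read counts that was not refitted, since read counts per site were not used here. The deposited lists hold 4 measures per summit, namely an integer score, a fold (ratio of pileup to background), and p-value and q-value on the −log10 scale. Only the order of the p-values was used between lists, with fold and p-value giving reads and depth. Elements merged peaks sharing at least 1 bp. Groups come from sample titles. LPS times were compared within genotype and KO with WT within LPS time by exact permutation tests, checked on simulated data, and by limma (version 3.58.1, R 4.3.3). Python (3.11.15), numpy (2.4.6), scipy (1.17.1) and pandas (2.3.3) were used. Elements tested had a peak among the best 24389 in at least 2 lists. Full values are given for promoters, elements passing a call rule and the 3 best median ranks. Annotation was GENCODE of GRCm38 and sequence RefSeq's assembly of that build. Members and gene lists were chosen with earlier results of these data known. Read numbers cover counting error only. Alternatives were other rank ceilings, overlaps, filters, depth adjustment, limma, a replicate block and leaving out each list.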

Additional observations from a re-analysis of the deposited data

How the results depend on the processing

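At 1 h against 0 h the 3 elements called became 1 with the best 10000 peaks of every list, 0 with all deposited peaks ranked as a share of the list, 0 where a peak had to cover 50% of the element and 6 by limma. From 1 to 18 h the 2 called became 1, 0, 0 and 4 in the same settings. By limma 1 in each comparison was −2.6 kb, which entered only through lists at 1 h. In the share and cover settings 0 elements of the genome were called. At 18 h against 0 h the 0 called became 1 with a peak required in 4 lists (+6.2 kb) and 2 after adjustment for depth (+6.2 and +23.0 kb), which left the counts of the other LPS comparisons unchanged or within 1.5 times. Leaving out each list in turn gave 0 to 4 called at 1 h against 0 h, 0 to 1 at 18 h against 0 h (+6.2 kb, without KO 0 h replicate 1) and 0 at 18 h against 1 h. At 18 h against 1 h 0 elements of the genome passed in any setting that left out a list. Without any WT list of 0 or 1 h, KO 0 h replicate 1 or KO 1 h replicate 1 the count at 1 h was 0, where 0 elements of the genome passed, and the cause was not tested. Leaving out a list leaves fewer regroupings, so the smallest possible p is above the 0.005 of the full test. That holds without KO 0 h replicate 2 or 3 as well, where 7112 and 7639 elements of the genome passed. Over the 11 settings that left out 1 list, the rise at +6.2 kb stayed between 1.40 and 2.23 and that at Il20 −7.4 kb between 1.45 and 1.62. With the replicate block the counts at 1 h against 0 h and 18 h against 1 h were 0, since 4 pairs allow no p below 0.125. The numbers did not pair the lists, with 35 same-number pairs correlated from −0.226 to 0.206 and 4 over 0.1. Over 88 combinations of the 5 called differences and a setting none changed direction, 27 stayed past the threshold and 61 did not. KO against WT had 0 called throughout. Windows of 10 and 50 kb gave 9 and 34 elements in place of 18, and elements built from summits gave 39. AP-1 motifs were in 1 of 18 elements within 50 bp (9.07% of all elements) and 6 within 150 bp (16.2%). After adjustment for depth the 5 called differences stayed past the threshold (exact permutation, adjusted p from 0.0225 to 0.0326). The weakest peaks of the cluster rest on 3 reads.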
